A study of Mus musculus with 3 samples.

Results

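The nuclear genes for proteins of the mitochondrial ribosome were measured in splenic T lymphocytes held with LZ-8 for 10 h. LZ-8 is a small protein of the medicinal mushroom Ganoderma lucidum that acts on immune cells. The genes were taken by name, as all rows of the deposited count table with the symbol Mrpl or Mrps followed by digits and at most 1 further letter, with pseudogene symbols left out. This gave 76 of the 44788 rows, 47 named for the large subunit and 29 named for the small subunit. Female BALB/c mice aged 6 to 8 weeks gave the spleens, and the cells were captured with CD90.2 beads and cultured with low serum. The study has 1 group, T lymphocytes with LZ-8 for 10 h, with 3 replicate libraries and no untreated sample, so no effect of LZ-8 can be measured here. Whether the replicates are separate animals or cultures is not stated, so p-values measure only the spread between these libraries, which may be technical.

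The mitochondrial ribosome translates the few proteins that the mitochondrial genome encodes, all of them subunits of the respiratory chain and the ATP synthase. Its RNA is made inside the organelle, whereas all of its proteins are encoded in the nucleus, made in the cytosol and imported. Some of these proteins descend from bacterial ribosomal proteins, and others were added during the evolution of mitochondria. Activated T cells are known to enlarge their mitochondria and their respiratory capacity before they divide.

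The libraries held 13239482, 15007652 and 15683820 counts in replicates 1, 2 and 3, and the 76 genes took 40300, 42761 and 41507 of them. The share of replicate 1 was 0.304%, with a 95% exact binomial interval of 0.301 to 0.307. Replicate 2 had 0.285% (interval 0.282 to 0.288), and replicate 3 had 0.265% (interval 0.262 to 0.267). These intervals cover counting error only. The libraries differed in residual ribosomal RNA, as the row of the cytosolic ribosomal RNA Rn18s-rs5 held 5.83%, 2.37% and 0.992% of the counts in replicates 1, 2 and 3. All 11 T cell marker genes were at 10 CPM or more (CPM are counts scaled for depth), and the 28 markers of B cells, myeloid cells, NK cells, red cells, platelets and stroma summed to between 0.569% and 0.628% of the T cell markers. The 3 platelet markers were at 0 counts.

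The promoters of 4 genes are printed first because the values that follow return to them. Mrpl12 was the most abundant of the 76 genes, Mrps12 encodes a protein of the decoding centre with nearly equal values in the 3 libraries, Mrps26 varied most between libraries, and Mrps23 had the largest excess in replicate 3 over replicate 1. Each sequence is from RefSeq (GRCm38.p6), written 5′ to 3′ on the strand of the gene, from 250 bases before the annotated start to 30 bases after it. Capitals mark matches on either strand to GCGCA, any base N, then GCGC (the nuclear respiratory factor NRF1), CCGGAAG (ETS factors such as GABPA), AAGATGGC (YY1) and GGGCGG (SP1). The windows are chr11:120484387-120484666 on the plus strand for Mrpl12, chr7:28741792-28742071 on the minus strand for Mrps12, chr2:130563507-130563786 on the plus strand for Mrps26 and chr11:88204138-88204417 on the plus strand for Mrps23.
Mrpl12: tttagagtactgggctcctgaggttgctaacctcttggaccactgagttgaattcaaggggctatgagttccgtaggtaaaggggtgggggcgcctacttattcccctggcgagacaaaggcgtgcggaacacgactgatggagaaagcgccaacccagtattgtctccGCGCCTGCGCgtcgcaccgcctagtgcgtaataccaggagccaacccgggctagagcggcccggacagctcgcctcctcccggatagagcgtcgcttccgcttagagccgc
Mrps12: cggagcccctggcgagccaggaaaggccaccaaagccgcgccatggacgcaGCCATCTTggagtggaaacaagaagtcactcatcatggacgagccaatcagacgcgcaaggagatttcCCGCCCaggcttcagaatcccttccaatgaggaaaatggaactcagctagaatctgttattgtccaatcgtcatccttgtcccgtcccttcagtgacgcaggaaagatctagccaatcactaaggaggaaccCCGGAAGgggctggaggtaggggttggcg
Mrps26: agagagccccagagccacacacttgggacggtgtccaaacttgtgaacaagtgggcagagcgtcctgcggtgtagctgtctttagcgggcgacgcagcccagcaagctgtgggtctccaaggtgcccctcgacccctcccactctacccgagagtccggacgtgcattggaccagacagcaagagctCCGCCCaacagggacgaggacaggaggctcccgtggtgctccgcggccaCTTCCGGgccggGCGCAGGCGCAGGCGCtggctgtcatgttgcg
Mrps23: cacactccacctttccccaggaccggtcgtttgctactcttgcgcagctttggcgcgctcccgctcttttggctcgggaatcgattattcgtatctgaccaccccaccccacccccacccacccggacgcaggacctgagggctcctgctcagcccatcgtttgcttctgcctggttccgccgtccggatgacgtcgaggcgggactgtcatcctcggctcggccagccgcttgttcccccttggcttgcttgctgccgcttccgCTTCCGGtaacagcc
Mrpl12 holds an NRF1 match that begins 81 bases before the start. Mrps12 holds a YY1 match, an SP1 match and an ETS match, the last from base 2 when the annotated start is base 1. Mrps26 holds an SP1 match, an ETS match and 2 NRF1 matches that overlap by 4 bases, and Mrps23 holds an ETS match. A match is a description of the letters and does not show that a factor binds there.

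Every one of the 76 genes was detected in all 3 libraries at a mean of at least 10 CPM, and 63 reached 20 CPM. The values are counts scaled to the effective library size by the trimmed mean of M-values. In bulk RNA, fewer cells of a type and less RNA per cell cannot be told apart. The median gene was at 35.7 CPM in replicate 1, 31.2 CPM in replicate 2 and 29.2 CPM in replicate 3 (mean 32.0 ± 3.37, SD, n = 3). The genes summed to 3166, 2820.0 and 2571 CPM in replicates 1, 2 and 3. Only Mrpl12 and Mrpl24 passed 100 CPM, and the lowest mean, 10.4 CPM, was that of Mrpl23. Levels of 2 genes can be compared only per length, so the order below uses CPM per kilobase of exon, with CPM per kilobase of coding sequence beside it where the annotated exons are long.

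**Figure D1:**
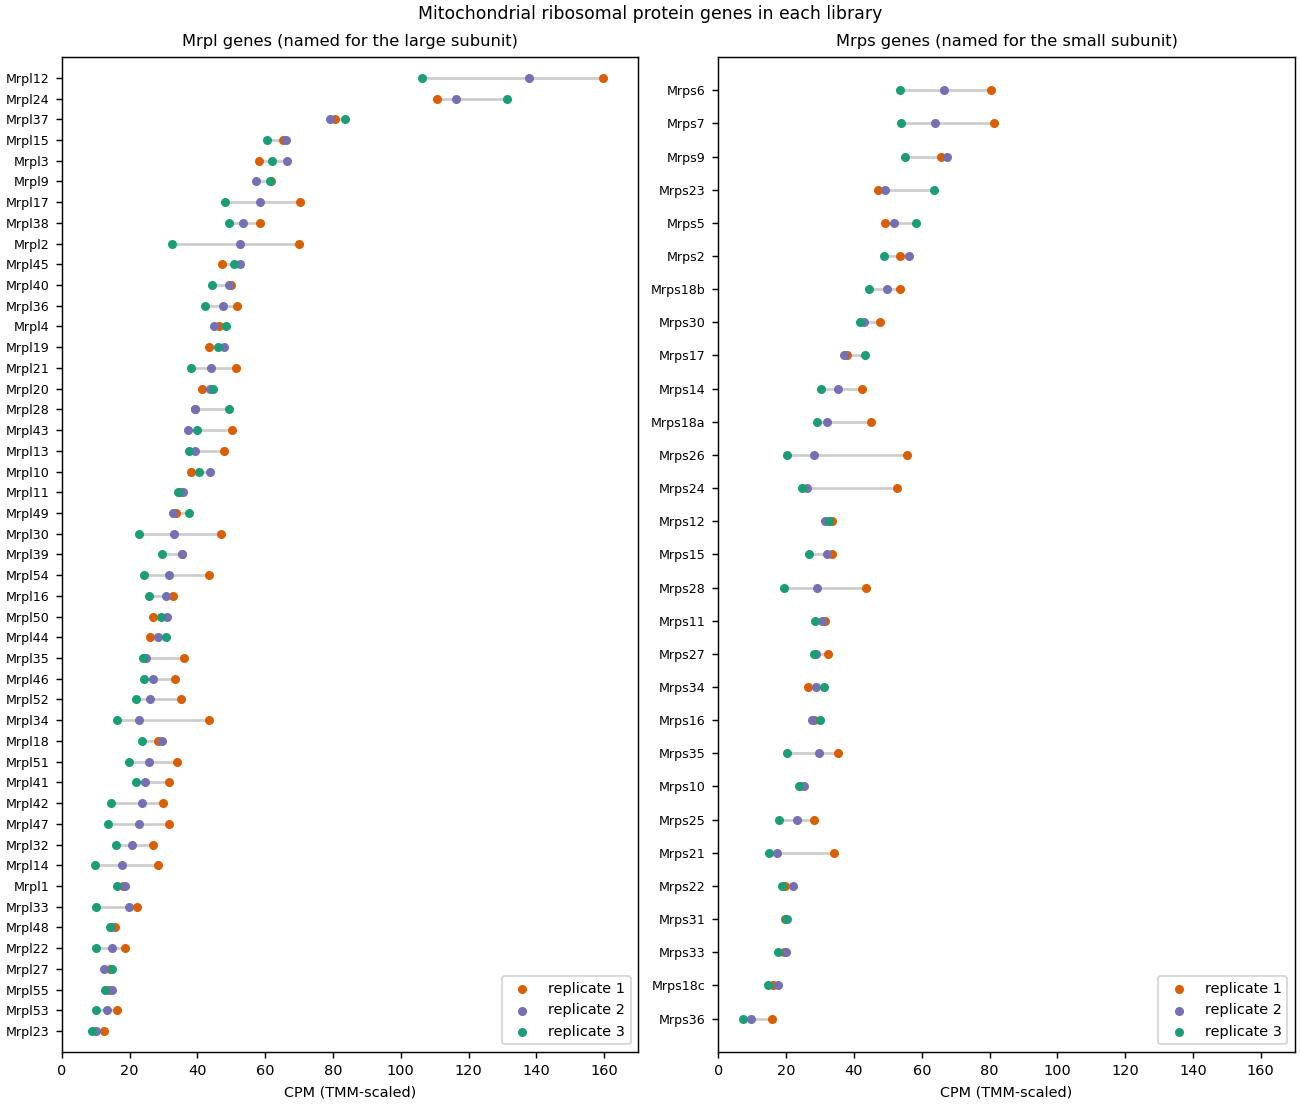
CPM of each of the 76 genes in replicates 1, 2 and 3, with Mrpl genes on the left and Mrps genes on the right, ordered by mean; each dot is a library and the grey line spans the 3 values. Mrpl12 and Mrpl24 stand above 100 CPM, and in most widely spread genes, such as Mrps26 and Mrpl34, replicate 1 is the highest.

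Mrpl12, which forms the flexible stalk that recruits elongation factors, led by either length. It had 121, 105 and 80.9 CPM per kilobase of exon in replicates 1, 2 and 3, a mean of 102. Mrpl24, a protein of the large subunit near the exit tunnel, followed with 90.4, 94.9 and 107 CPM per kilobase. The order of these 2 genes was not the same in every library, since Mrpl24 was the higher in replicate 3. Mrps6, of the platform of the small subunit, averaged 79.0 CPM per kilobase and was the most abundant Mrps gene.

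Mrpl52, Mrpl20, Mrpl54, Mrpl37 and Mrpl36 completed the 8 highest, with means of 66.1, 56.7, 54.9, 54.2 and 51.1 CPM per kilobase of exon. Mrpl52 had 83.8, 62.2 and 52.5 CPM per kilobase in replicates 1, 2 and 3, and Mrpl54 had 72.1, 52.4 and 40.1. Mrpl20 had 54.2, 57.4 and 58.4, Mrpl37 had 53.9, 52.9 and 55.8, and Mrpl36 had 56.0, 51.7 and 45.8. The ranges of these 5 genes over the libraries overlapped. Within each library, Mrpl52 was above Mrpl54 and Mrpl36, and Mrpl20 was above Mrpl37, whereas the order of Mrpl52 and Mrpl20 was not the same in every library. Mrpl37, Mrpl52 and Mrpl54 are proteins without a bacterial counterpart, whereas Mrpl20 and Mrpl36 have one. Both Mrpl12 and Mrpl24 share exon bases with another gene on the opposite strand, 200 bases for Mrpl12 and 594 bases for Mrpl24. Mrps6 shares exon bases with Slc5a3 on its own strand, and the treatment of such bases by the counting is not known.

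At the low end stood Mrpl48, Mrps25, Mrpl1, Mrpl47, Mrps35, Mrpl32, Mrpl35 and Mrpl51, with means between 3.16 CPM per kilobase of exon for Mrpl48 and 7.74 for Mrpl51. Mrpl48 had 3.36, 3.10 and 3.02 CPM per kilobase in replicates 1, 2 and 3, and Mrps25 had 4.63, 3.83 and 2.93. Mrpl1, a protein of the stalk at the tRNA exit side, had 4.30, 4.49 and 3.88. The range of Mrps25 over the libraries overlapped those of both other genes, whereas Mrpl1 was above Mrpl48 in every library. Mrpl47 had 9.39, 6.76 and 4.03 CPM per kilobase and Mrps35 had 8.47, 7.16 and 4.84. Mrpl32, which matures by proteolytic cleavage inside the mitochondrion, had 8.97, 6.87 and 5.28, Mrpl35 had 9.67, 6.68 and 6.44, and Mrpl51 had 9.93, 7.49 and 5.82.

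This low group depended on the annotation of long exons. The annotated exons of these 8 ran from 3013 bases for Mrpl32 to 6073 bases for Mrps25. Per kilobase of coding sequence, the lowest were Mrps31 with 17.3 CPM, Mrpl1 with 17.5, Mrps22 with 18.7 and Mrpl23 with 20.2. Only Mrpl1 and Mrpl48 of the 8 lowest per exon were also among the 8 lowest per coding kilobase. Of the 8 highest, 4 were shared, Mrpl12 with 223, Mrpl24 with 185, Mrps6 with 178 and Mrpl36 with 154 CPM per coding kilobase.

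Mrpl23 carries a limit of its own. Its processed pseudogene Mrpl23-ps1, which matches the Mrpl23 transcript at 100% over 540 bases, had 489, 326 and 203 counts in replicates 1, 2 and 3, more than the 157, 153 and 144 counts of Mrpl23 itself. Reads of the gene and of the copy could not be separated from the table. In all, 18 of the 76 genes have a pseudogene of at least 95% identity over 200 bases or more, 23 share exon bases with another gene, and 42 have neither.

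By the SD of log2 levels, the 76 genes were closer to each other than the cytosolic ribosomal protein genes or the nuclear genes of the respiratory chain. The SD of log2 CPM per coding kilobase was 0.76 among the 76 genes, against 1.70 among 77 cytosolic ribosomal protein genes and 1.27 among 76 nuclear respiratory chain genes of at least 1 CPM. Per kilobase of exon the SDs were 1.07, against 1.81 and 1.33. On that scale the log2 ratio of the upper to the lower quartile was 1.40, against 2.44 and 1.42. The middle of the respiratory chain genes was thus nearly as narrow per kilobase of exon. Genes are not replicates of each other, so this is a description and carries no test. The lower and upper quartiles of the 76 genes were 39.1 and 73.0 CPM per coding kilobase.

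Per kilobase of exon, the median of the 76 genes was below that of the cytosolic ribosomal protein genes in each library. It was 27.1, 26.4 and 21.5 CPM in replicates 1, 2 and 3, against 198, 157 and 108 CPM for the cytosolic genes. The log2 ratio of the medians averaged -2.59 ± 0.27 (SD, n = 3), or 6.04-fold lower. The median was also below that of the nuclear respiratory chain genes, at 63.8, 59.1 and 48.4 CPM per kilobase, with a log2 ratio of -1.19 ± 0.04 (SD, n = 3), or 2.28-fold lower. An exact two-sided sign-flip test on 3 libraries cannot go below 0.25, so none of these ratios could pass a threshold of 0.05. Many cytosolic ribosomal protein genes have processed pseudogenes, and how the authors' counting divided their reads is not known.

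**Figure D2:**
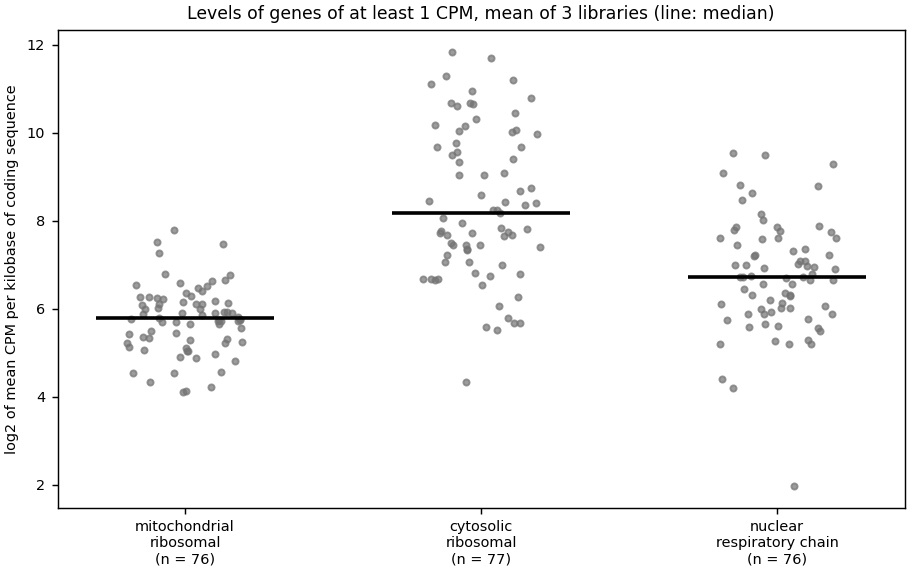
Log2 of the mean CPM per kilobase of coding sequence for 76 mitochondrial ribosomal, 77 cytosolic ribosomal and 76 nuclear respiratory chain genes of at least 1 CPM; each dot is a gene and the line is the median. The mitochondrial ribosomal genes form the lowest and narrowest group, with an SD of 0.76 against 1.70 and 1.27.

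The proteins that the mitochondrial ribosome makes are encoded by 13 mitochondrial genes, all of which were detected in every library. Their median CPM per kilobase was above that of the 76 genes by a log2 ratio of 5.83 ± 0.33 (SD, n = 3), and by 4.68 ± 0.34 when coding lengths were used. COX1, a core subunit of cytochrome oxidase, was at 5549 ± 430.3 CPM and ND1, a core subunit of complex I, at 2048 ± 179 CPM (SD, n = 3 each). ND6, encoded on the other strand of the mitochondrial genome, was at 5.94 ± 1.66 CPM (SD, n = 3).

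The order of the large and the small subunit in median level depended on the length used. Mrpl genes had medians of 28.3, 25.6 and 21.3 CPM per kilobase of exon in replicates 1, 2 and 3, and Mrps genes had 25.8, 27.0 and 23.5. The log2 ratio of large to small was 0.13, -0.08 and -0.14 in replicates 1, 2 and 3 (mean -0.028 ± 0.14, SD, n = 3), so on this scale the subunits did not differ beyond the spread between libraries. Per coding kilobase the ratio was above 0 in 3 of 3 libraries, at 0.053, 0.14 and 0.14 (mean 0.11 ± 0.05, SD, n = 3), and without a length it was 0.071 ± 0.056. Over all annotated exons it was 0.51 ± 0.02 (SD, n = 3). On these scales the large subunit was the higher by more than the SD between libraries, and the exact sign-flip test gave its smallest possible p of 0.25 for each. All these ratios take the subunit from the symbol. With Mrps30 and Mrps18a moved to the large subunit and Mrps36 left out, the ratio per kilobase of exon was -0.073 ± 0.12 (SD, n = 3).

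Within the small subunit, the 15 proteins with a bacterial counterpart had higher medians than the 9 that are particular to mitochondria. The bacterial set had 35.8, 30.7 and 26.9 CPM per kilobase of exon in replicates 1, 2 and 3, against 16.5, 15.6 and 15.2 for the mitochondrial set. The log2 ratio was 0.97 ± 0.15 (SD, n = 3), or 1.96-fold, in the same direction in 3 of 3 libraries, and 0.75 ± 0.20 per coding kilobase. Without a length it was 0.45 ± 0.23, with 0.18 in replicate 2. The sets overlapped gene by gene, since the bacterial set ran from 9.93 CPM per kilobase for Mrps16 to 79.0 for Mrps6 and the mitochondrial set from 3.80 for Mrps25 to 37.4 for Mrps23. Within the large subunit, the 30 genes with a bacterial counterpart had medians of 27.1, 26.1 and 20.3 CPM per kilobase and the 18 particular to mitochondria had 26.5, 22.7 and 21.4. There the log2 ratio was 0.05 ± 0.14 (SD, n = 3), within the spread between libraries, and it was -0.013 ± 0.06 per coding kilobase and 0.23 ± 0.04 without a length. The assignment of proteins to these sets follows published structures as background knowledge and places Mrps30 in the large subunit. The 3 S18 relatives (Mrps18a, Mrps18b and Mrps18c) and Mrps36 were in none of these sets.

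The spread between libraries was then examined gene by gene with a chi-square test of the 3 counts, which compares these libraries and not conditions. At a Benjamini-Hochberg adjusted p of 0.05 over all genes, 47 of the 76 genes differed, against 42.8% of the 15392 genes tested. That is 61.8% of the 76, beside 53.2% of the 7351 genes tested within the same range of mean CPM. Genes that differed with replicate 1 the highest were 39, or 51.3% of the 76, beside 17.9% of all genes tested. As a share of the genes that differed, this was 83.0% of the 47, beside 41.9% of 6589. Replicate 2 was the highest in 3 (Mrpl18, Mrps2 and Mrps9), or 3.95% of the 76 beside 5.76% of all genes, and replicate 3 in 5 (Mrpl24, Mrpl28, Mrps5, Mrps17 and Mrps23), or 6.58% beside 19.1%. Leaving out replicate 3 gave 28 of 76 genes beside 22.8% of all genes, and leaving out replicate 1 gave 32 beside 24.4%.

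In CPM, the larger differences had replicate 1 on top. A difference of 1.5-fold or more between the highest and the lowest library was present in 24 of the 76 genes, or 31.6%, all past the test, beside 13.8% of all genes. Replicate 1 was the highest in all 24, and genes with such a difference and replicate 1 the highest made up 9.1% of all genes tested. Among all 2130 genes with such a difference, replicate 1 was the highest in 65.7%. After removal of the trend of each library with exon length and GC content, 21 of the 76 genes differed by 1.5-fold or more, beside 11.2% of all genes. Replicate 1 was the highest in 18 of the 21, and the like share over all genes is not given here. In CPM the difference was 2-fold or more in 12 genes, or 15.8%, beside 7.06% of all genes. Between replicates 2 and 3 alone, 5 genes differed by 1.5-fold or more, beside 5.34% of all genes. Between replicates 1 and 2 alone, 7 did, beside 4.72%.

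Mrps26, a small subunit protein without a bacterial counterpart, had the largest coefficient of variation, 53.8%, with 55.8, 28.2 and 20.1 CPM in replicates 1, 2 and 3. Mrpl34, with a bacterial counterpart, had 43.3, 22.9 and 16.4 CPM. Mrpl14, a protein at the interface of the subunits, had 28.3, 17.7 and 9.91 CPM. In these 3 genes the highest and lowest libraries stood 2.77-fold, 2.64-fold and 2.85-fold apart in CPM.

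Mrps21 had 34.0, 17.3 and 15.0 CPM in replicates 1, 2 and 3, and Mrps24, at the entry of the messenger RNA, had 52.6, 26.0 and 24.8 CPM. Mrps28 had 43.4, 29.0 and 19.3 CPM, Mrpl47, near the exit tunnel, had 31.6, 22.8 and 13.6 CPM, and Mrps36 had 15.9, 9.50 and 7.12 CPM. In Mrps21 and Mrps24, replicates 2 and 3 lay close together and replicate 1 stood apart. Mrps36 is counted here by its name, although its protein is known to belong to the oxoglutarate dehydrogenase complex. Its copies Mrps36-ps1 and Mrps36-ps2, at over 99% identity, held 145, 159 and 155 counts and 82, 70 and 56 counts. All 8 genes passed the chi-square test, with adjusted p between 6.96e-62 for Mrps26 and 1.81e-11 for Mrps36. Mrps26, Mrps21 and Mrps36 have near-identical pseudogenes.

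Few genes were highest in replicate 3. Mrps23 had 47.1, 49.3 and 63.6 CPM in replicates 1, 2 and 3 (chi-square, adjusted p = 1.17e-09), 1.35-fold higher in replicate 3 than in replicate 1. Mrpl28 had 39.4, 39.4 and 49.3 CPM, and Mrpl24 had 111, 116 and 131 CPM. The most even genes were Mrps31 with 19.6, 20.1 and 20.1 CPM, Mrpl11 with 35.0, 35.8 and 34.2 CPM, and Mrpl37 with 80.7, 79.3 and 83.6 CPM. Their coefficients of variation were 1.55%, 2.31% and 2.70%.

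Genes of known function in the ribosome fell on both sides. Of the stalk and its base, Mrpl12 had 159.6, 138 and 106 CPM in replicates 1, 2 and 3 and passed the test. Mrpl10 had 38.3, 43.7 and 40.4 CPM and Mrpl11 the even values above, and neither passed. On the peptidyl transferase side, Mrpl2 had 69.8, 52.4 and 32.6 CPM and passed, whereas Mrpl3 had 58.1, 66.3 and 62.1 CPM and did not. On the decoding side of the small subunit, Mrps12 had 33.4, 31.4 and 32.5 CPM and Mrps11 had 31.4, 30.7 and 28.4 CPM, and neither passed. Mrps7, a head protein of the small subunit, had 81.5, 64.0 and 54.0 CPM and passed.

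Mrpl45, which anchors the ribosome to the inner membrane at the tunnel exit, had 47.2, 52.5 and 50.7 CPM and did not pass. Mrpl44, related to ribonuclease III, had 26.1, 28.4 and 30.6 CPM, and Mrps30, which sits in the large subunit despite its name, had 47.8, 42.9 and 41.9 CPM. Mrps27, a pentatricopeptide repeat protein, had 32.2, 28.8 and 28.1 CPM, and Mrps34 had 26.4, 28.7 and 31.0 CPM. None of these 4 passed either. The 3 relatives of the bacterial S18 protein are Mrps18a, placed in the large subunit, and Mrps18b and Mrps18c, placed in the small subunit. Mrps18a had 45.2, 32.0 and 29.2 CPM and Mrps18b 53.7, 49.8 and 44.4 CPM, and both passed. Mrps18c had 16.1, 17.6 and 14.7 CPM and did not.

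As a whole, the log2 ratio of replicate 1 to replicate 3, on CPM with 0.5 added, had a median of 0.26 over the 76 genes and of -0.03 over all genes of at least 1 CPM. It was above 0 in 57 of the 76 genes, or 75%, beside 46.6% of all genes of at least 1 CPM. Of the cytosolic ribosomal protein genes 92.2% were above 0, and of the nuclear respiratory chain genes 78.9%. The median was 0.29 for Mrpl and 0.19 for Mrps genes. The same ratio had a median of 0.62 over the cytosolic ribosomal protein genes and 0.47 over the nuclear respiratory chain genes. By the chi-square test, 75 of 78 cytosolic ribosomal protein genes (96.2%) and 62 of 76 respiratory chain genes (81.6%) differed between libraries. This stood beside 61.8% of the 76 mitochondrial ribosomal genes and 42.8% of all genes. The test reaches smaller differences at higher counts, and the lists differed in level. Library medians averaged 127 CPM over all 82 cytosolic symbols, 47.5 CPM over all 82 respiratory chain symbols and 32.0 CPM over the 76 genes. Over the 13 mitochondrially encoded genes the median log2 ratio of replicate 1 to replicate 3 was -0.17.

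**Figure D3:**
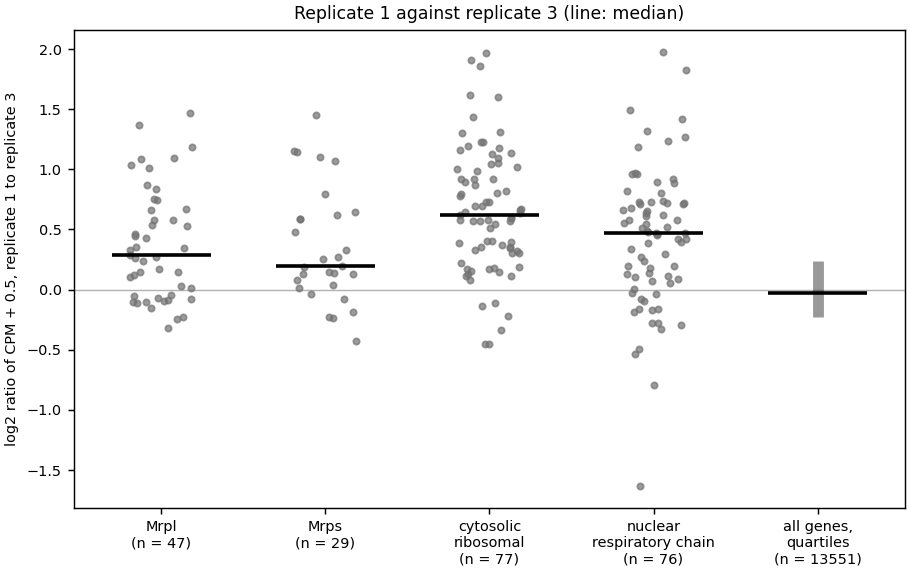
Log2 ratio of replicate 1 to replicate 3 (CPM with 0.5 added) for each Mrpl, Mrps, cytosolic ribosomal and nuclear respiratory chain gene of at least 1 CPM, with medians as lines, and the quartiles and median of all genes at the right. Medians are 0.29 for Mrpl, 0.19 for Mrps, 0.62 and 0.47 for the 2 other lists and -0.03 for all genes.

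The ratio varied with gene length. Among the 26 shortest of the 76 genes, with 418 to 1031 bases of exon, the median log2 ratio of replicate 1 to replicate 3 was 0.67. Of these, 23 of 26 were above 0, beside 41.1% of coding genes of any length of at least 1 CPM. Coding genes of the same span of lengths had a median of 0.37. The middle 25 genes had a median of 0.14 and the longest 25 had 0.19, against 0.12 and -0.08 for coding genes of the same spans. Across the 76 genes, Spearman's rho of the ratio with log2 exon length was -0.30, a description over genes that share their libraries. When the trend of each library with exon length and GC content was removed, the median was 0.14, and 44 of the 76 genes still passed the chi-square test, beside 35.6% of all genes. With the 42 genes that have neither a near-identical pseudogene nor shared exon bases, the median was 0.16. The residual ribosomal RNA, highest in replicate 1, moved with the same libraries. Markers of neutrophils and of stroma and endothelium, 4 genes each and all below 1 CPM in every library, also summed highest in replicate 1. The neutrophil markers came to 0.0253%, 0.00753% and 0.00176% of the T cell markers in replicates 1, 2 and 3, and the stroma and endothelium markers to 0.0316%, 0.00565% and 0.00176%. In CPM these sums were 0.943, 0.264 and 0.0619 for neutrophils and 1.18, 0.198 and 0.0619 for stroma and endothelium. A count of 3 is 0.236, 0.198 and 0.186 CPM. Erythroid markers (0.0780%, 0.0734% and 0.0458%) also fell. Macrophage and monocyte markers (0.156%, 0.166% and 0.180%) and NK cell markers (0.0211%, 0.0226% and 0.0246%) were highest in replicate 3. B cell markers were near even (0.316%, 0.322% and 0.315%). The part of the ribosomal RNA and of cells other than T cells in the differences was not tested.

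**Figure D4:**
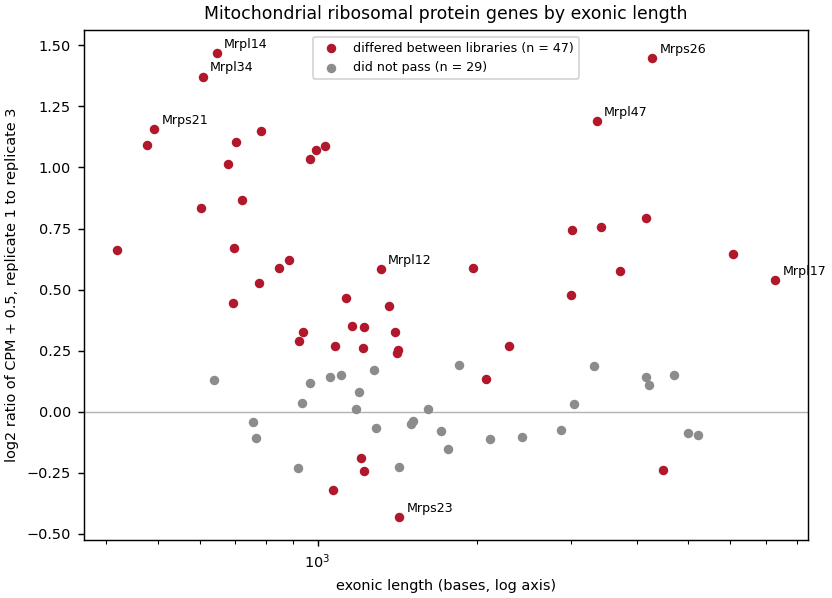
Log2 ratio of replicate 1 to replicate 3 (CPM with 0.5 added) of each of the 76 genes against exonic length on a log axis; red dots are the 47 genes that differed between libraries by the chi-square test and grey dots the 29 that did not pass. More of the genes above 0.5 lie at or below 1031 bases than above it, and Mrps26 and Mrpl47 are among the longer ones.

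By edgeR's moderated estimate, the replicate spread of the 76 genes lay near that of all genes. The biological coefficient of variation, edgeR's estimate of the spread between replicates beyond counting, was 0.154 over 13676 genes. Gene by gene it had a median of 0.140 over the 76 genes, with a highest value of 0.339, and of 0.143 over all genes. Over coding genes of at least 1 CPM the median was 0.132. The gene-wise values are drawn towards a trend over all genes, so the nearness of these medians is partly set by the method. The plain coefficient of variation in CPM had a median of 11.1% over the 76 genes. It was 10.9% over all genes of at least 1 CPM, and 9.02% over genes within the same range of mean CPM.

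Other genes of mitochondrial translation were read from lists of known factors. The counts that differed are again set beside the 42.8% of all genes tested. Of 5 mitochondrial ribosomal proteins under other symbols, 4 (80%) differed between libraries by the chi-square test, with replicate 1 the highest in 2 and replicate 3 in 2. Ptcd3 had 74.5, 89.4 and 90.7 CPM in replicates 1, 2 and 3, and Aurkaip1 had 84.0, 64.4 and 56.1 CPM. Per kilobase of exon Aurkaip1 had the higher mean of the pair, 58.8 against 32.9 CPM for Ptcd3, and per coding kilobase 114 against 41.3. Mrp63 and Ict1, older names of Mrpl57 and Mrpl58, are not matched by the naming rule. Mrp63 was at 14.2 ± 5.76 CPM and Ict1, a peptidyl-tRNA hydrolase that is part of the large subunit, at 32.7 ± 9.36 CPM (SD, n = 3 each), and in both replicate 1 was the highest.

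Of 16 translation factors of the organelle, 5 (31.25%, beside 42.8% of all genes) differed between libraries. Replicate 1 was the highest in 1, replicate 2 in 1 and replicate 3 in 3. Lrpprc, which stabilises mitochondrial messenger RNAs, had 156, 192 and 216 CPM in replicates 1, 2 and 3, and Gfm1, an elongation factor, 80.6, 85.4 and 90.7 CPM. The median log2 ratio of replicate 1 to replicate 3 over the 16 factors was -0.07. Of 25 assembly and ribosomal RNA modification factors, 13 (52%, beside 42.8%) differed. Replicate 1 was the highest in 6, replicate 2 in 2 and replicate 3 in 5, and the median ratio over the 25 was 0.01. C1qbp was at 276.5 ± 45.9 CPM and Dhx30, an RNA helicase, at 230.5 ± 22.4 CPM (SD, n = 3 each).

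Of 6 genes of mitochondrial transcription only Polrmt, the RNA polymerase, differed (16.7%, beside 42.8% of all genes), at 87.4 ± 5.48 CPM (SD, n = 3). Tfam, which packages mitochondrial DNA and helps to start its transcription, was at 63.5 ± 1.93 CPM (SD, n = 3). Of 10 nuclear regulators of mitochondrial genes, 9 could be tested and 8 differed (88.9%, beside 42.8%), none by 1.5-fold. The median of the 10 was 88.2 CPM, where the test reaches smaller differences than at low counts. Myc was at 635 ± 23.8 CPM and Pprc1, a coactivator of the PGC-1 family, at 406 ± 24.5 CPM (SD, n = 3 each). Its relative Ppargc1a had 1, 0 and 4 counts.

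RefSeq promoter windows, from 250 bases before to 50 bases after the annotated start, were matched for 67 of the 76 genes. The ETS letters CCGGAAG stood on either strand in 34.3% of these, beside 20.3% of 8248 genes of at least 1 CPM and 9.12% of all 27025 windows. The YY1 letters AAGATGGC stood in 17.9%, beside 5.32% and 2.88%. The NRF1 letters also stood in 17.9%, beside 11.7% and 4.78%. The SP1 letters GGGCGG stood in 49.3%, beside 65.7% and 35.9%, and the E-box CACGTG in 7.46%, beside 10.9% and 7.24%. Windows of the 66 matched respiratory chain genes held ETS letters in 22.7%, NRF1 letters in 24.2% and YY1 letters in 12.1%. Those of the 60 matched cytosolic ribosomal protein genes held ETS letters in 40%, more than the 34.3% above, and NRF1 and YY1 letters in 6.67% each. In GC content the windows of the 76 genes had a median of 58%, against 61% for genes of at least 1 CPM.

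A cytosine followed by 4 pyrimidines at the annotated start, the beginning of the terminal oligopyrimidine tract of cytosolic ribosomal protein messages, stood in 0 of the 67 matched windows. It stood in 12 of 60 cytosolic ribosomal protein genes and in 2.28% of genes of at least 1 CPM. This reads the annotated start base only.

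The 76 genes lie on 17 chromosomes, with 10 on chromosome 11 and 8 on chromosome 17. In the GENCODE annotation of GRCm38, 17 of the 76 genes, or 22.4%, start within 1000 bases of a coding gene that points away from them without overlap of the starts, against 6.76% of 22015 coding genes. With pairs whose starts overlap head to head counted as well, it was 32 genes, or 42.1%, against 10.8%. These coding genes were taken whether expressed or not, whereas all 76 genes were at a mean of at least 10 CPM. Mrps12, at chr7:28739641-28741820, starts 172 bases from Sars2, the mitochondrial seryl-tRNA synthetase. Mrpl49 starts 59 bases from Fau, which encodes a cytosolic ribosomal protein. Of the overlapping pairs, Mrpl46 and Mrps11 overlap over 412 bases. Mrpl46 had 33.5, 26.9 and 24.2 CPM in replicates 1, 2 and 3 and passed the chi-square test, whereas Mrps11 did not.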

How the data were processed

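RNA of 3 libraries was extracted with Trizol and sequenced on an Ion Proton instrument, per the labels' protocols. Whole-number counts for each gene were deposited by the authors in a single table with 1 column per replicate. Per the submitters' processing notes the genome build is mm10. Which software, annotation and strand setting made the counts is not stated.

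Counts were scaled by TMM with edgeR 4.0.16 (R 4.3.3) to CPM. Genes with an expected count of at least 5 in each library were tested by chi-square against effective library sizes, with Benjamini-Hochberg adjustment over all of them. The chi-square and dispersion steps were tested on simulated data. Exon and coding lengths came from GENCODE M21 (GRCm38). Exon lengths used transcripts with a RefSeq match where there were any. The coding length was the longest coding sequence among all annotated transcripts of the gene. Pseudogene copies were found with blastn 2.17.0. Trends with length and GC content were splines with 6 degrees of freedom, fitted by robust regression over genes at 5 CPM or higher. Alternatives included DESeq2 1.42.0 size factors.

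The genes, lists, motifs and tests were chosen with earlier results of these data known. Any of the 76 genes may be named. Values per library are given for the 8 highest and 8 lowest by CPM per kilobase, the 8 with the largest coefficient of variation, and those with a role listed for that purpose. The 2 genes of each other list with the highest mean CPM are named. Genes highest in replicate 3, the most even genes, ND6, Ppargc1a and the promoter examples were chosen after their values were seen. Coding lengths, the omission of genes with copies, and the variants of the 1.5-fold count were added after seeing the data.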

Additional observations from a re-analysis of the deposited data

How the results depend on the processing

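No paired analysis was possible because the study has 1 group. The median level of 32.0 CPM is 25.0 CPM per kilobase of exon, 55.5 per coding kilobase and 14.2 over all annotated exons. All 76 genes passed 10 CPM, and 63 passed 20 CPM. The 47 genes that differed between libraries became 24 at 1.5-fold, 12 at 2-fold and 24 of the 42 without copies or overlaps. The last was 57.1% of the 42, beside 42.8% of all genes. Leaving out each library gave 28 to 46, beside 22.8% to 41.7% of all genes. The 24 genes at 1.5-fold became 11 of those 42, or 26.2%, beside 13.8% of all genes. With plain library totals they became 18 of the 76, beside 14.5% of all genes. Leaving out each library gave 5 (without replicate 1, beside 5.34%) to 23 (without replicate 2, beside 13.2%). The median log2 ratio of replicate 1 to replicate 3, 0.26, was 0.17 with plain library totals, where all genes moved to -0.12, 0.14 without the length and GC trend and 0.16 over the 42 genes.

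The log2 ratio of large to small subunit, -0.028, changed sign to 0.071 in CPM, 0.056 with means of log2 levels, 0.51 over all annotated exons, 0.11 over coding lengths and 0.028 without replicate 3, and leaving out each library gave -0.11 to 0.028. Against cytosolic ribosomal protein genes, -2.59 became -2.10 in CPM and -2.99 with means of log2 levels. Against respiratory chain genes, -1.19 became -0.67 in CPM, -1.27 with means and -0.92 over coding lengths. The biological coefficient of variation of 0.154 was 0.0703 as DESeq2's median gene-wise value, and 0.112 to 0.211 with each library left out. The cause of these shifts was not tested. Fewer than 5 expected counts limited none of the 76 genes, and 3 libraries limit every ratio.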
